A study of Schizosaccharomyces pombe with 3 samples.

Results

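The rds1 gene (SPAC343.12) and SPAC343.20, which overlaps it on the opposite strand, were examined in fission yeast grown with 3%, 5% or 8% glucose. The members were found by gene name or systematic identifier in the deposited tables and are 2 of the 444 entries there. Wild type cells of strain 972h- were grown to mid-log phase in synthetic dextrose medium with 3% (T1), 5% (T2) or 8% (T3) glucose present from the beginning, and no other treatment is named. Each concentration was sequenced as 1 library of polyadenylated RNA, pooled from 3 replicates. Whether these were separate cultures is not stated. No difference between concentrations could therefore be tested, and every 95% interval given here covers counting error only, not the spread between cultures.

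Fission yeast prefers glucose, and while it is plentiful many genes for other carbon sources are kept low, in part through the repressor Scr1 and through signalling by cyclic AMP and protein kinase A. The rds1 gene was described in this yeast as an adenine-repressible gene whose transcript also responds to glucose, ammonium, phosphate, carbon dioxide and temperature. Its product is a conserved fungal protein in the tables, with no activity given. SPAC343.20 is a hypothetical protein there, with no stated role.

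In assembly ASM294v3 rds1 lies on the plus strand of chromosome I, from 1667739 to 1669666, as 1 exon of 1928 bases with a coding region of 402 codons between 1668071 and 1669279. SPAC343.20 lies on the minus strand from 1667955 to 1669964, also as 1 exon, and its coding region of 113 codons runs from 1669964 down to 1669623, in a model marked as partial. The models share 1712 bases, which is 88.8% of rds1 and 85.2% of SPAC343.20. All 1209 coding bases of rds1, stop codon included, fall inside the part of the SPAC343.20 transcript that follows its own stop codon, whereas 44 coding bases of SPAC343.20 reach into the end of the rds1 transcript. Outside the overlap 216 bases belong to rds1 alone and 298 to SPAC343.20 alone. The best protein match that the tables give for the SPAC343.20 transcript is rds1 itself, and in the assembly its opposite strand holds the rds1 coding sequence with 0 base differences.

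The reference sequences below show how the same DNA serves both models. They were read from RefSeq assembly ASM294v3, 5′ to 3′, with a start codon, a stop codon or the complement of the rds1 start codon in capitals. The first is the beginning of the rds1 coding region (1668071 to 1668100), and the second is the same stretch as it stands in the SPAC343.20 transcript. The third ends the rds1 coding region (1669250 to 1669279). The others begin (1669935 to 1669964) and end (1669623 to 1669652) that of SPAC343.20.
rds1 start: ATGgttcaagctcttactgcttctttaatg
rds1 start on the SPAC343.20 strand: cattaaagaagcagtaagagcttgaacCAT
rds1 coding end: gctggtcctcttgtttacgagtccggaTAA
SPAC343.20 start: ATGaaagttacaatgctccctttgcaattg
SPAC343.20 coding end: ggaatgttggattcaccgaaaagagaaTAA

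**Figure D1:**
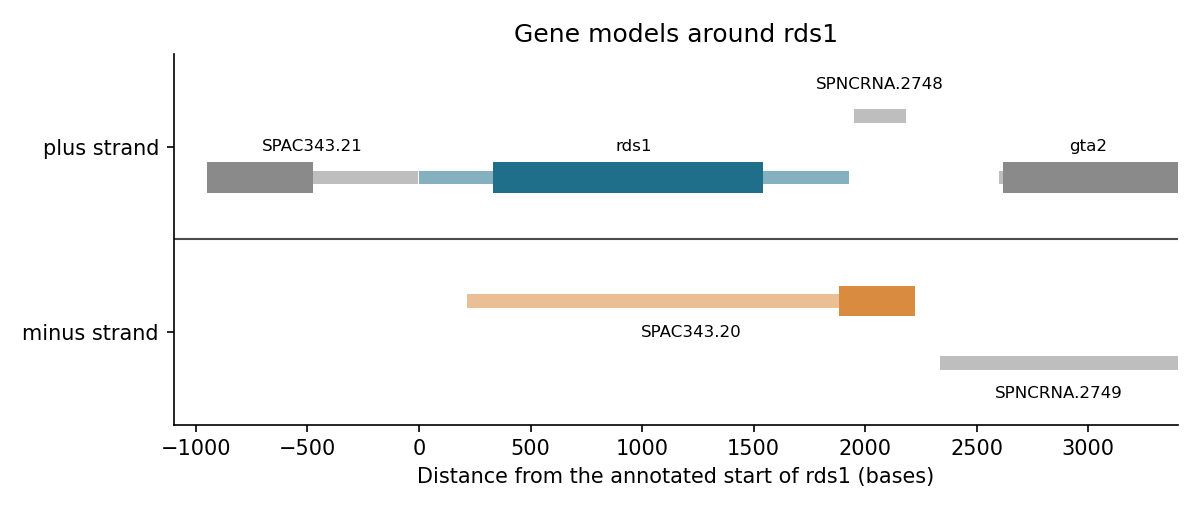
Gene models around rds1 by distance in bases from its annotated start, with the plus strand above and the minus strand below the line; thick bars are coding regions, thin bars are the rest of each gene model, and long noncoding RNAs are in the outer rows. The whole coding region of rds1 is covered by SPAC343.20, and SPAC343.21 ends 3 bases before rds1 begins.

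The level measured for rds1 was high at 3% and 5% glucose and dropped at 8%. The level was 791.07 FPKM in T1 (8787 counts), 887.72 FPKM in T2 (10178 counts) and 237.13 FPKM in T3 (2682 counts). FPKM is the fragment count scaled for the length of the gene model and for the fragments of the library. T2 was thus highest and T3 lowest. Among the entries with a value in the same library rds1 stood 32nd of 404 in T1, 16th of 238 in T2 and 43rd of 423 in T3. Only genes listed as different have values, and the sets differ by library, so these ranks are not comparable between libraries.

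SPAC343.20 followed the same order. It had 758.74 FPKM in T1 (8489 counts), 818.43 FPKM in T2 (9451 counts) and 219.19 FPKM in T3 (2497 counts). Its FPKM was a little under that of rds1 in each library.

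**Figure D2:**
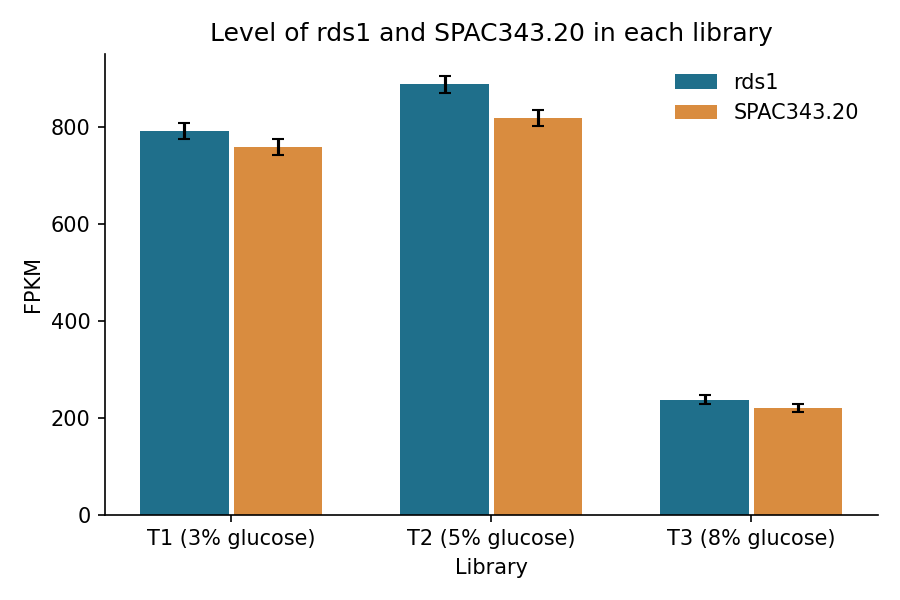
FPKM of rds1 and SPAC343.20 in the T1, T2 and T3 libraries (3%, 5% and 8% glucose); bars are the value of the 1 library and error bars are exact 95% Poisson intervals of its count. Both genes were highest in T2 and lowest in T3, where rds1 had 237.13 FPKM and SPAC343.20 had 219.19 FPKM.

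Between 3% and 8% glucose rds1 decreased 3.34-fold (95% interval 3.19 to 3.48), a log2 ratio of T3 to T1 of -1.74 (-1.80 to -1.68). SPAC343.20 decreased 3.46-fold (3.31 to 3.62), with a log2 ratio of -1.79 (-1.86 to -1.73). Of the 383 entries with a value in both libraries, 34.5% were at least 2-fold lower in T3, as were both members. Those entries had been listed for a difference between samples, so the share describes the tables and not the transcriptome. Among the 132 genes lower in T3 in this table, SPAC343.20 ranked 36th and rds1 45th by the size of the decrease. The median decrease of those genes was 2.73-fold, leaving out 2 that were at 0 in T3.

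From 5% to 8% glucose the decrease was 3.74-fold for rds1 (95% interval 3.59 to 3.91) and 3.73-fold for SPAC343.20 (3.57 to 3.90). At least 2-fold lower levels in T3 were seen in 47.0% of the 217 entries with a value in both libraries. The members were 32nd and 33rd of the 101 genes lower in T3 in this table, whose median decrease was 2.89-fold, leaving out 1 gene at 0. Both comparisons use the same T3 library, so they are not separate evidence of a low level at 8% glucose.

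Between 3% and 5% glucose the members differed little. In T2 rds1 was 1.12-fold higher than in T1 (95% interval 1.09 to 1.15) and SPAC343.20 was 1.08-fold higher (1.05 to 1.11). The intervals lie above 1, but they hold no spread between cultures, and whether T1 and T2 differ beyond that spread could not be tested. In the same comparison 46.0% of 198 entries were at least 2-fold apart, and neither member was.

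**Figure D3:**
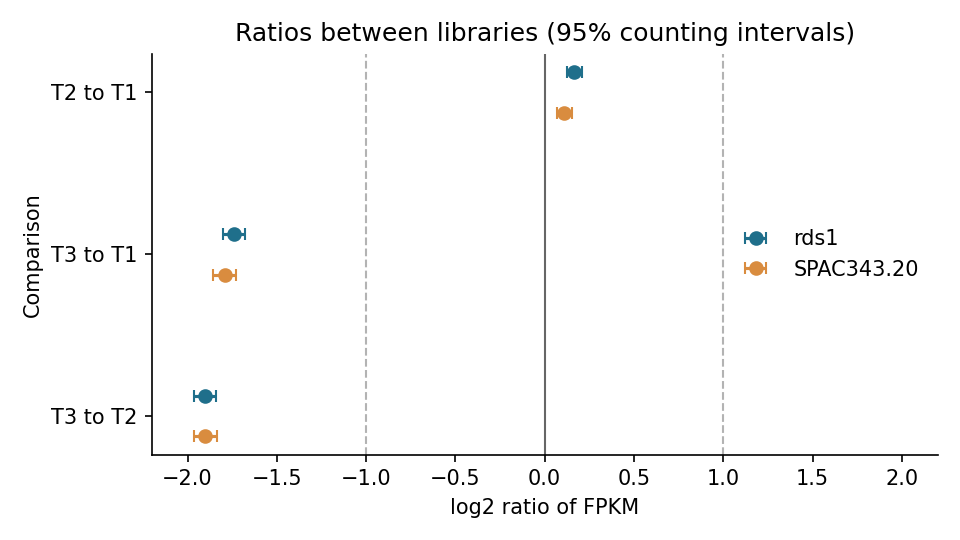
Log2 ratio of FPKM between libraries for rds1 and SPAC343.20; points are the ratio of 2 libraries, horizontal bars are exact 95% Clopper-Pearson intervals, and dashed lines mark a 2-fold difference. The T3 ratios lie between -1.90 and -1.74, and the T2 to T1 ratios are 0.17 and 0.11.

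The changes of the 2 genes were hardly distinguishable from each other. The T3 to T2 count ratio of rds1 was 0.997 times that of SPAC343.20 (exact conditional 95% interval 0.938 to 1.06). For T3 to T1 this value was 1.04 (0.975 to 1.10), and for T2 to T1 it was 1.04 (0.998 to 1.08). All 3 intervals include 1, which does not show that the genes changed alike. Their bounds give the range of differences left by counting error at 95% confidence.

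The division of counts between the genes was close to even in each library. Of the summed counts rds1 held 50.9% in T1 (95% exact Clopper-Pearson interval 50.1 to 51.6), 51.9% in T2 (51.2 to 52.6) and 51.8% in T3 (50.4 to 53.2). The sums were 17276, 19629 and 5179 counts in T1, T2 and T3. They amounted to 0.301%, 0.333% and 0.0890% of the fragments behind each FPKM scale.

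All 6 counts of the members are whole numbers. RSEM, which the study used to estimate expression, gives fractions when it divides a fragment among models that match it alike, and 32 of the 444 entries have such fractional counts. No step described in the study's methods marked the strand of the cDNA, and whether strand entered the counting is not stated in them. The ratio of counts to FPKM corresponded to about 5745486 fragments for T1, 5888210 for T2 and 5818984 for T3. These are 52.3%, 53.2% and 53.2% of the read pairs mapped to genes, with 2 reads taken as a pair. From these tables, an RNA transcribed from the SPAC343.20 strand and fragments of rds1 RNA counted for the opposite model cannot be told apart, and the same holds the other way round. The level and the decrease of each member are therefore uncertain as values of its own RNA.

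The near-even counts were compared with those of other overlapping genes. Among the 413 entries placed in ASM294v3 there were 18 pairs on opposite strands, including rds1 and SPAC343.20, and all 18 had whole counts. In 3 pairs the overlap covered at least 80% of the longer model, a limit set after the values were seen. In these the larger count was 1.01 to 1.15 times the smaller, over 8 library values. The other members of the group were tgd1 with gal10, genes of the galactose cluster, and SPAC5H10.04 with SPAC5H10.05c. For rds1 and SPAC343.20 the ratio was 1.04 in T1, 1.08 in T2 and 1.07 in T3. Just below the limit, hem4 and spk1 overlapped over 75.9% of the longer model and had count ratios of 1.02 to 1.17. In all 15 pairs with less overlap than the limit the ratio ranged from 1.01 to 37 over 32 library values. In all 14 pairs with values of both genes in T1 and T3, both genes changed in the same direction. These pairs were listed for their changes, and what share of the agreement comes from the counting was not tested.

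**Figure D4:**
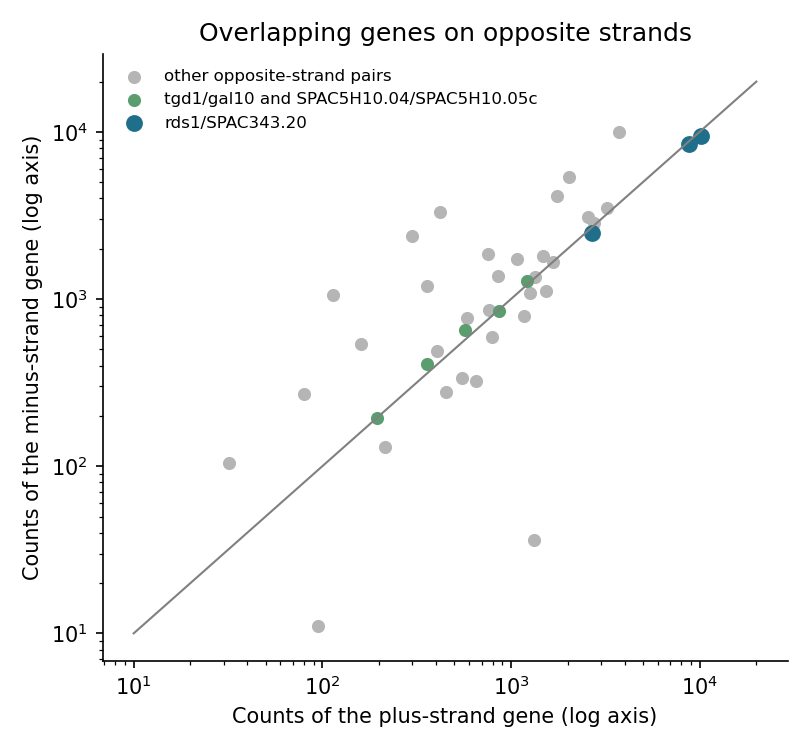
Counts of the plus-strand gene against those of the minus-strand gene for 18 overlapping pairs on log axes, 1 point per pair and library with values of both; the line marks equal counts. The 3 points of rds1 and SPAC343.20 lie close to the line, with counts 1.04 to 1.08 times apart.

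The sequence before rds1 was searched for binding motifs of factors known from glucose, stress and nitrogen responses, on both strands, from 250 bases before to 50 bases after the annotated start. The ATF/CREB core motif TGACGT had 1 match, on the opposite strand, which begins 104 bases before the start and lies within the transcript of SPAC343.21. It is shown in capitals in its surroundings (1667623 to 1667652, plus strand), as the only match found.
rds1 upstream: gtaccaagtcacACGTCAagctgagaccga
This motif is present in 5.91% of 5112 promoters of the same length. No match was found in this window for CCCCTC, the element bound by Rst2, for CCCCAC or CCCCGC, as bound by Scr1 and Mig1 type repressors, or for GATAAG, bound by GATA factors. None of the 5 motifs was found in the corresponding window of SPAC343.20. A match is only a description of the sequence.

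Of the 20 nearest protein-coding genes, 10 on each side, 2 were found in the tables, and they changed in opposite directions. Over the whole of ASM294v3 413 entries were placed, against 5112 promoters searched above. Finding 2 of 20 is thus close to the share over all genes. SPAC343.21, a sequence orphan next to rds1 on the same strand, had 6.12 FPKM in T1 (89 counts), 2.94 FPKM in T2 (44 counts) and 1.76 FPKM in T3 (26 counts). Its level was far below that of rds1 in each library. From 3% to 8% glucose it had a log2 ratio of -1.80 (95% interval -2.49 to -1.15), beside -1.74 for rds1. From 3% to 5% the ratio was -1.06 (-1.61 to -0.52), where rds1 had 0.17. SPAC343.21 was thus highest in T1, whereas rds1 was highest in T2. The model of SPAC343.21 has 2592 bases in the tables and 949 in ASM294v3, so whether the counted model reached into rds1 is not known. The other neighbour, mug28, lies 5 genes to the left. This meiotically upregulated gene, which encodes an RNA-binding protein, had 14.48 FPKM in T1 (147 counts) and 32.77 FPKM in T3 (339 counts), the opposite direction to rds1. No value was found for gta2, the nearest gene on the other side, so whether it changed with rds1 is not known.

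The entries with the pattern most like that of the members were sought among 154 entries with at least 20 counts in each library. Likeness was the Euclidean distance between the 3 log2 FPKM differences among the 3 libraries. The nearest to each member was the other, at a distance of 0.08. The members share most of their bases, and how much of this nearness comes from the counting was not tested. Next to rds1 came SPBPB2B2.06c at 0.19, a predicted phosphoprotein phosphatase in the tables, and SPCC794.04c at 0.20, a predicted membrane transporter. SPBPB2B2.06c had 66.68 FPKM in T1, 76.54 FPKM in T2 and 22.19 FPKM in T3. SPCC794.04c had 227.33 FPKM in T1, 228.35 FPKM in T2 and 65.68 FPKM in T3. Like the members, both lost most of their level between 5% and 8% glucose. They were followed by say1 at 0.27 and by pyp2 at 0.33, a tyrosine phosphatase that acts on the stress-activated kinase Sty1. Expression of pyp2 was 87.64 FPKM in T1, 117.86 FPKM in T2 and 29.93 FPKM in T3. SPAC343.20 had the same neighbours except that SPCC417.15, at 0.28, took the place of pyp2. Of the 154 entries, 40 were like rds1 highest in T2 and lowest in T3. With 3 libraries such likeness describes these values only.

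**Figure D5:**
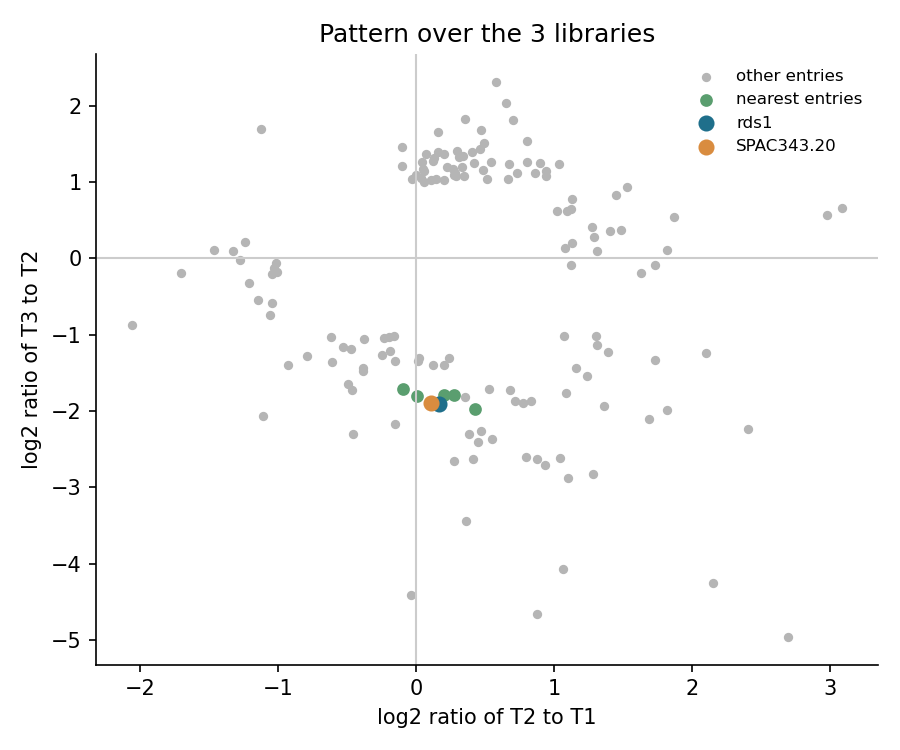
Log2 ratio of T2 to T1 against log2 ratio of T3 to T2 for the 154 entries with at least 20 counts in each library; rds1, SPAC343.20 and their nearest entries are coloured. The members lie together at -1.90 on the vertical axis and close to 0 on the horizontal axis.

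Lists of genes for glucose, phosphate, nitrogen, purines and stress were set beside rds1. The nitrogen list also covers iron transport, and neither iron nor stress is among the nutrients named for rds1. Of 19 genes listed as repressed by glucose, 13 have values. The rest, fbp1 and pck1 among them, have none, as only genes listed as different between samples have values. The counts that follow therefore do not describe the whole list. In the table of T1 and T3 it was 11 of them that decreased at 8% glucose and 0 that increased, where 132 of all 367 entries decreased, with a median log2 ratio of -2.22 against 1.12 over the whole table. From T2 to T3 all 13 were lower, as were 101 of all 181 entries, with a median of -2.71 against -1.04. The members' ratios of -1.74 to -1.90 were smaller in size than these medians. For example, inv1, which encodes the secreted invertase, had 126.62 FPKM in T1, 272.09 FPKM in T2 and 36.96 FPKM in T3, the same order of libraries as rds1. It was 1 of 6 genes of the list that rose by 2-fold or more from 3% to 5% glucose, while hsp16 fell, and 61 of all 87 entries of that table rose. In the same comparison rds1 had a log2 ratio of 0.17. The list includes gal10, whose reads are as uncertain as those of the members because tgd1 overlaps it. The list was drawn up with earlier results of these libraries known, so its decreases are not separate evidence.

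Few genes of the other lists are in the tables. Of 10 symbols listed for the phosphate response, 9 match a gene name in ASM294v3. Of these 2 have values and they went opposite ways. SPBPB2B2.06c decreased at 8% glucose and pho7, which encodes the activator of this response, was higher, with 16.06 FPKM in T1, 25.51 FPKM in T2 and 52.25 FPKM in T3. Of 19 symbols for nitrogen starvation and for nitrogen and iron transport, 17 match a gene name in ASM294v3, and isp7 and fio1 have values. Expression of isp7 was 13.96 FPKM in T2 and 6.90 FPKM in T3, and fio1 had 23.25 FPKM in T1 and 49.16 FPKM in T2. Of 12 symbols for purine synthesis and uptake, 11 match a gene name in ASM294v3, and 0 of these have values. Of 15 stress response genes 4 have values, and all 4 were lower in T3 than in T2, namely pyp2, hsp16, hsp104 and ctt1, where 101 of all 181 entries were lower. The catalase gene ctt1 had 483.93 FPKM in T2 and 202.99 FPKM in T3. The small heat shock gene hsp16 is in the glucose list as well.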

How the data were processed

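Paired-end libraries of 3 samples, T1, T2 and T3, were sequenced, 1 per glucose concentration. By the methods, the authors filtered reads with SOAPnuke, aligned them to genes with Bowtie, and used RSEM to obtain expected counts and FPKM. The 3 deposited tables used hold these expected counts and FPKM values for genes listed as different between 2 samples. The authors' own log2 ratios, p-values and FDR in them were not used. For T1 with T3 and for T1 with T2 they list 367 and 87 genes, more than the study reports. For T2 with T3 they list 181, as the study reports. The genome build behind these tables was not given in the sources used here. Positions are those of ASM294v3, in which 387 entries were placed by accession and 26 by the gene name in the tables. There rds1 has 1928 bases against 1996 in the tables. Second sheets repeat part of the first and were left out. Tables were joined by gene identifier with 0 clashing values.

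Ratios are of FPKM, with Clopper-Pearson intervals from the counts (Python 3.11.15, scipy 1.17.1), which were checked on simulated Poisson counts. That check covers the computation only, as it holds no spread between cultures and no reads shared between genes. The interval of the count ratio between genes is the exact conditional one. A value of 0.001 FPKM at 0 counts was treated as 0. Fragments behind FPKM were taken from the slope of counts over FPKM against model length in entries of at least 500 counts. Gene-mapped read totals come from the study's mapping statistics.

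Named were the members, overlapping entries, 10 coding neighbours on each side, the 5 entries nearest in pattern and examples from 5 lists. Members and lists were chosen with earlier results of these data known. Alternatives were counts per gene-mapped read, counts with no scaling, a pseudocount of 1 FPKM, summed counts of both genes and a minimum of 10 FPKM.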

Additional observations from a re-analysis of the deposited data

How the results depend on the processing

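The decreases of rds1 and SPAC343.20 at 8% glucose kept their direction under each of the 5 alternatives, with log2 ratios from -1.92 to -1.71. Of 30 recomputed ratios 28 stayed inside the counting interval and 0 changed sign. Part of this was fixed beforehand. The minimum of 10 FPKM leaves each ratio as it was, because both members exceed it in every library. A pseudocount of 1 FPKM can change little at these levels, and summed counts give both members the same ratio. With no scaling of counts the T2 to T1 log2 ratio moved to 0.21 for rds1 and to 0.15 for SPAC343.20, since the T2 library has more fragments. The numbers of listed genes depend on the limit. At a log2 ratio of at least 2, the T1 and T3 table would hold 38 genes up and 23 down at 8% glucose, that of T2 and T3 would hold 9 up and 28 down, and that of T1 and T2 would hold 15 up and 3 down at 5%, so that neither member would be listed. With at least 1000 bases, 83 genes were down from 3% to 8% glucose and 9 from 3% to 5%. No paired analysis was possible because each concentration has 1 library.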
